A study of Homo sapiens with 40 samples.

Results

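Proteins that bind the 3′ untranslated region (UTR) of an mRNA and shorten its life form several families, and 8 of their genes are described here: ZFP36, ZFP36L1, ZFP36L2, KHSRP, RC3H1, RC3H2, ZC3H12A and PUM2. They were chosen by symbol with earlier results of these data known, and all 8 were found among the 19962 genes of the deposited count table. RNA-seq counts were measured in 40 libraries from RKO, a human colorectal carcinoma cell line, in 10 groups of 4 wells. All groups carried a doxycycline (Dox)-inducible Cas9 with GFP and a lentiviral pair of single guide RNAs with a BFP marker, with U6 promoters driving the guides and a PGK promoter driving BFP, and BFP-positive cells had been sorted as a population. The guides targeted the AAVS1 safe-harbour locus (sgAAVS1), IGF2BP2 (sgIGF2BP2) or IGF2BP3 (sgIGF2BP3), where the named IGF2BP genes encode RNA-binding proteins known to stabilise many mRNAs.

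Each of the 3 lines was given DMSO, the solvent control, or Dox at 250 ng/mL for 72 h, which turns Cas9 on. The sgIGF2BP2 line was in addition transfected with a non-targeting siRNA (siControl) or with an siRNA pool against IGF2BP2 (siIGF2BP2), and the sgIGF2BP3 line with siControl or a pool against IGF2BP3 (siIGF2BP3), in both cases without Dox. The pools were used at 75 nM for 48 h. All cells received 4-thiouridine at 250 µM for 2 h, so every library comes from metabolically labelled cells. The 4 replicates of a group were separate wells, and nothing in the labels says that they came from separate passages, so p-values measure the spread between wells. In such bulk RNA, fewer cells that express a gene and less RNA per cell cannot be told apart.

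Most of these proteins recognise short motifs in the 3′ UTR and bring in the enzymes that remove the poly(A) tail, take off the cap and degrade the mRNA. ZFP36 (tristetraprolin), ZFP36L1 and ZFP36L2 are zinc finger proteins that bind AU-rich elements and recruit the CCR4-NOT deadenylase, and KHSRP binds AU-rich elements through its KH domains and recruits decay enzymes including the exosome. RC3H1 and RC3H2 (Roquin-1 and Roquin-2) bind stem-loops, ZC3H12A (Regnase-1) is an endonuclease that cuts inflammatory mRNAs at stem-loops, and PUM2 is a Pumilio protein that binds a UGUA-containing motif. The mRNAs of several such proteins carry the same elements in their own 3′ UTRs.

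The sites below are shown because the 3 ZFP36-family mRNAs each hold copies of the AU-rich heptamer that this family binds, and PUM2 holds copies of the Pumilio motif. They were read from GENCODE release 29 transcripts (GRCh38) and are written 5′ to 3′ on the strand of the mRNA, as DNA, with the motif in capitals.
ZFP36 match 1 (chr19:39409181-39409209, forward strand): aatgggcccttTATTTATgacgactttat
ZFP36 match 2 (chr19:39409196-39409224, forward strand): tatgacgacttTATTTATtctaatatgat
ZFP36 match 3 (chr19:39409221-39409249, forward strand): tgattttatagTATTTATatatattgggt
ZFP36L1 match 1 (chr14:68788336-68788364, reverse strand): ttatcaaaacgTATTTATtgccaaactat
ZFP36L1 match 2 (chr14:68788294-68788322, reverse strand): aattttgttcaTATTTATcgggatgacaa
ZFP36L1 match 3 (chr14:68788077-68788105, reverse strand): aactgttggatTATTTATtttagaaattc
ZFP36L2 match 1 (chr2:43223448-43223476, reverse strand): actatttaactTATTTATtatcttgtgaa
ZFP36L2 match 2 (chr2:43223400-43223428, reverse strand): tgttcatactgTATTTATcaagtatgatg
ZFP36L2 match 3 (chr2:43223212-43223240, reverse strand): attgtatgtaaTATTTATttcattaattt
PUM2 Pumilio match 1 (chr2:20251142-20251171, reverse strand): gtttatagagaTGTATATAgaattatagtc
PUM2 Pumilio match 2 (chr2:20250882-20250911, reverse strand): tacagaaatatTGTATATActtacatatgt

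The search used TATTTAT for the AU-rich heptamer and TGTANATA for the Pumilio motif, on the strand of the mRNA only, with overlapping matches counted, in 1 coding transcript per gene. Over the 3′ UTRs of 11386 tested genes, 34.9% held TATTTAT and 29.2% held TGTANATA. ZFP36 had 3 matches to TATTTAT in a 3′ UTR of 713 bases, against a match in 20.5% and at least as many in 1.18% of 3′ UTRs within 20% of its length. ZFP36L1 (1871 bases) and ZFP36L2 (1917 bases) also had 3 each, where 4.13% and 4.2% of 3′ UTRs of like length had at least as many. RC3H2 had 5 matches in 5071 bases, which 4.61% of like-length 3′ UTRs reached. RC3H1 had 2, a count that 53.3% reached, and PUM2 had 1, which 53.2% reached. No TATTTAT was found in the 3′ UTRs of KHSRP or ZC3H12A. PUM2, RC3H1 and RC3H2 had 2 matches to TGTANATA each, which 15.3%, 45.4% and 30.1% of like-length 3′ UTRs reached, and the remaining genes had 0. A match is a sequence description and not evidence of binding.

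In GRCh38 the genes lie on 5 chromosomes. ZFP36 is on chromosome 19 (39406813 to 39409412, forward strand), as is KHSRP (6413348 to 6424794, reverse strand). ZFP36L2 (43222402 to 43226609) and PUM2 (20248691 to 20352234) are on the reverse strand of chromosome 2. RC3H1 (173931214 to 174022297, reverse strand) and ZC3H12A (37474552 to 37484379, forward strand) are on chromosome 1. ZFP36L1 is on chromosome 14 (68787660 to 68796253, reverse strand) and RC3H2 on chromosome 9 (122844556 to 122905341, reverse strand). None overlaps an annotated gene on the opposite strand, and the annotated genes that overlap them on the same strand are not in the count table. KHSRP has an annotated processed pseudogene, KHSRPP1, so its counts are uncertain where reads could be split between the copies.

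Total counts ran from 10018181 to 24822807 per library. The targeted genes moved with their labels: IGF2BP2 fell with Dox in sgIGF2BP2 cells from 85.3 to 33.9 CPM (counts scaled to library size) and with siIGF2BP2 from 108 to 30.2 CPM, and IGF2BP3 fell with Dox in sgIGF2BP3 cells from 180.0 to 56.2 CPM and with siIGF2BP3 from 170.0 to 24.7 CPM. IGF2BP3 also fell with Dox in sgIGF2BP2 cells (log2 fold change −0.25, edgeR adjusted p = 2.93e-06). IGF2BP2 was higher with siControl than with DMSO in both lines. The log2 fold change was 0.34 in the sgIGF2BP2 line (edgeR adjusted p = 4.48e-09) and 0.28 in the sgIGF2BP3 line (edgeR adjusted p = 6.46e-07). The epithelial genes EPCAM, KRT8, KRT18 and CDX2 were present in every library at 12.3 CPM or more, while KRT19, CDH1, VIL1, LGALS4 and GPA33 reached at most 0.305 CPM. Of the markers of leukocytes, endothelium, fibroblasts and hepatocytes only COL1A1 exceeded 0.229 CPM, at up to 1.1 CPM. Replicate 2 of sgIGF2BP2 with Dox stood apart from its group, with a chi-square per gene of 11.8 to 16.6 against the other 3, where every other pair of replicates in the series lay between 1.49 and 6.42. The top of that range, 5.64 to 6.42, came from replicate 3 of sgIGF2BP2 with siIGF2BP2. The remaining pairs of its group lay between 1.49 and 1.83. For the members' effects and the list counts given here, the value without replicate 2 of sgIGF2BP2 with Dox is printed where leaving that library out ended a call, made one or moved a value by over 1.5 times. Effects of the targeted genes and of single list genes are given with all libraries only.

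All 8 genes passed the filter on low counts, with 103 counts or more in every library, and 11428 genes were tested. Levels are CPM with library totals scaled with TMM (trimmed mean of M-values) factors. Compared per kilobase of exon, KHSRP and ZFP36L1 were the most abundant of the set, at 146 and 134 CPM per kb, which are the 97.9th and 97.6th percentiles of 11423 genes. ZFP36, ZFP36L2 and PUM2 followed at 17.8, 11.1 and 10.8 CPM per kb, RC3H2 and ZC3H12A at 5.21 and 3.74, and RC3H1 was lowest at 2.02, the 25.4th percentile. Within the ZFP36 family, ZFP36L1 thus supplied most of the length-scaled signal in these cells.

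**Figure D1:**
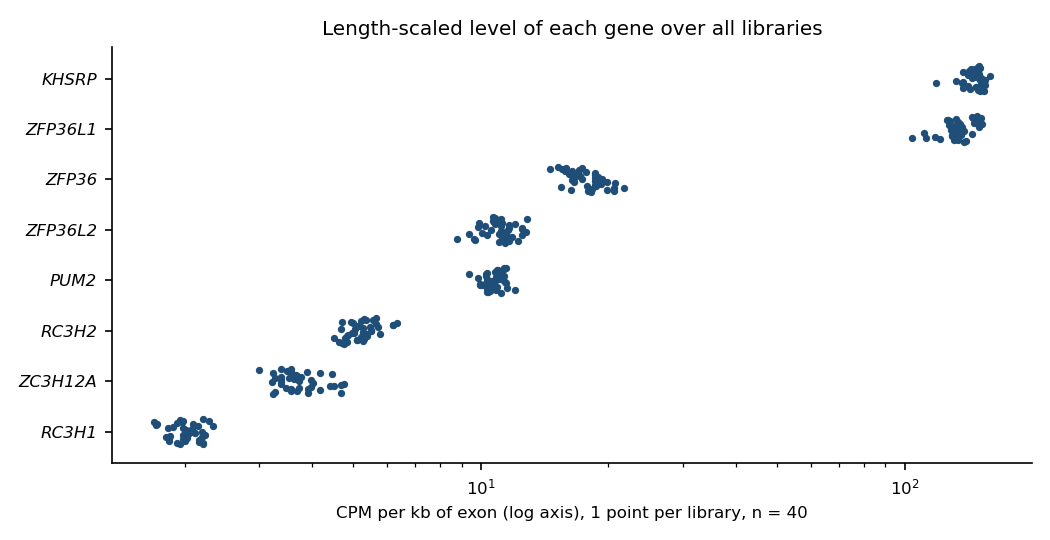
Level per kilobase of exon (CPM per kb, log axis) of each gene, with 1 point for each of the 40 libraries. KHSRP (mean 146) and ZFP36L1 (mean 134) lie apart from the other 6 genes, whose means run from 2.02 to 17.8.

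Across the 10 groups the levels moved little. The highest group mean exceeded the lowest by 1.12 times for PUM2, 1.15 for RC3H1, 1.16 for KHSRP, 1.2 for ZFP36L2, 1.26 for ZFP36, 1.29 for ZFP36L1 and RC3H2, and 1.36 for ZC3H12A. The median SD within a group was 2.74% of the mean for KHSRP and 7.69% for RC3H1, with the others between. When the 10 groups were put in order of their means, neighbouring groups overlapped in their 4 values for every gene at every step but 1: the 4 lowest-group values of ZFP36L1, in sgAAVS1 cells with Dox, lay below all of the next group.

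**Figure D2:**
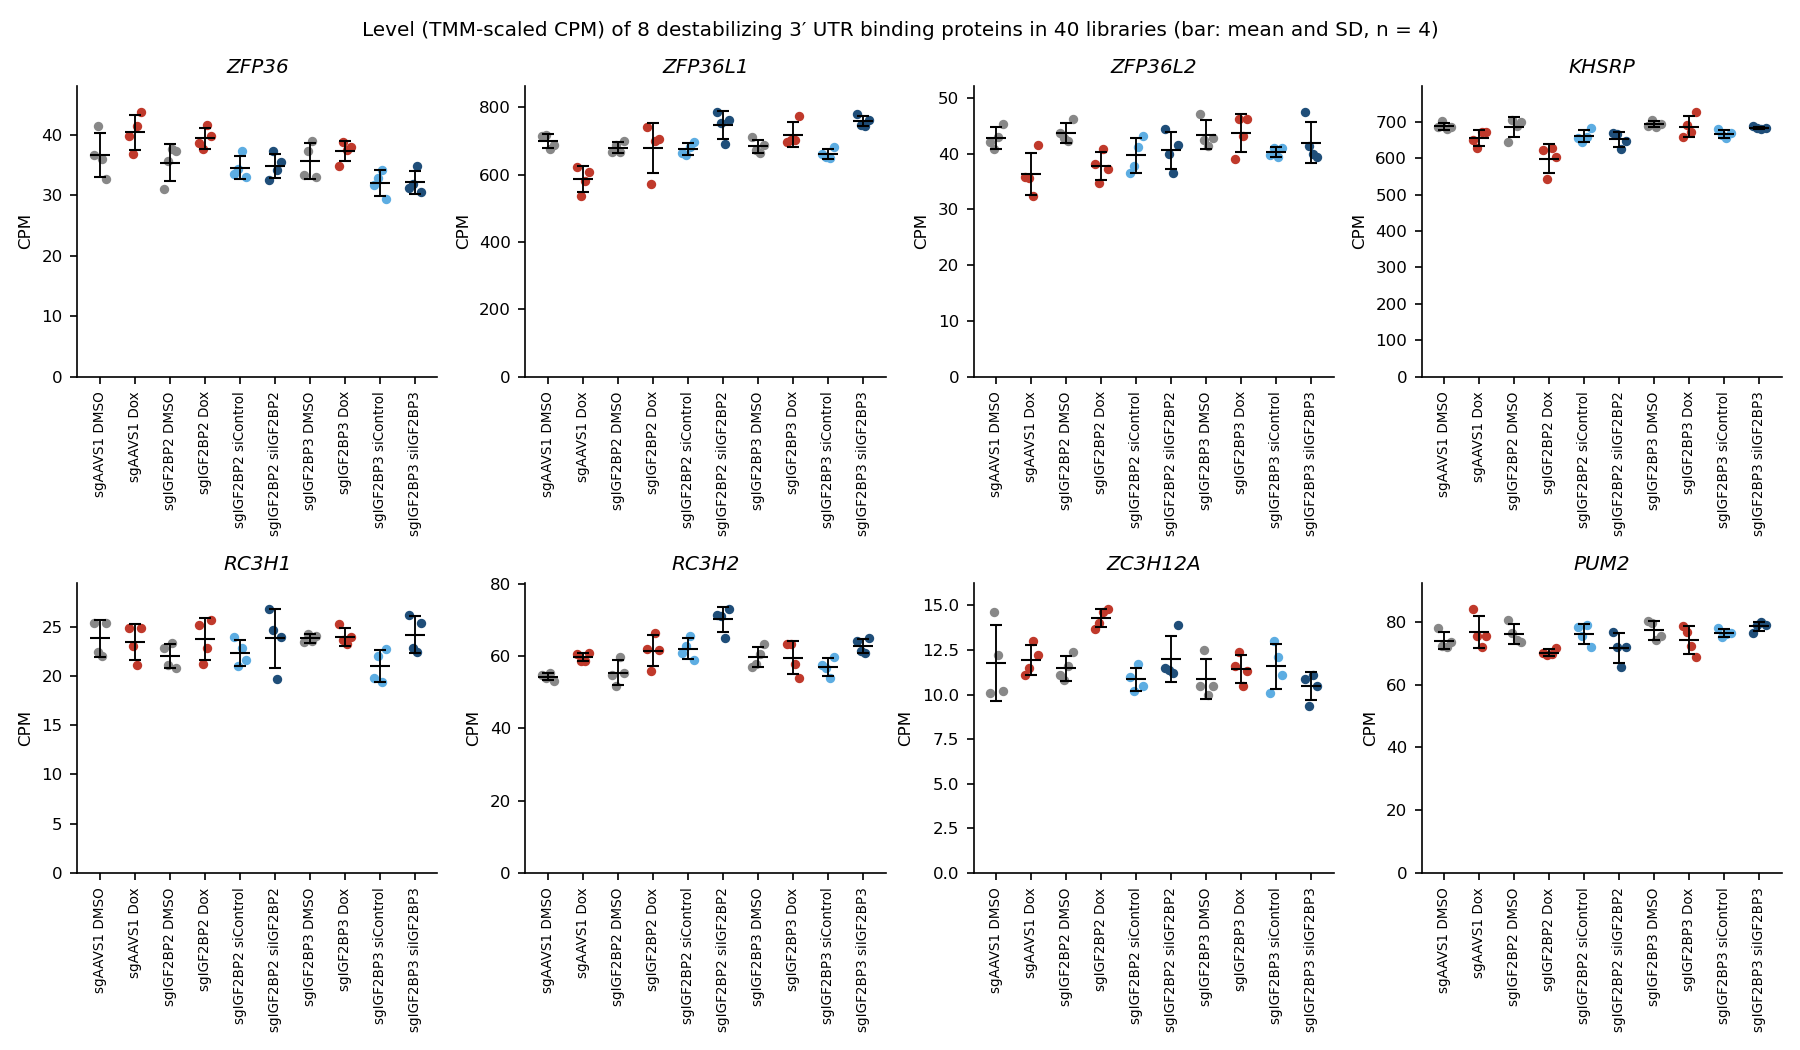
Level (CPM, linear axis from 0) of each gene in each group; points are the 4 wells, and the bar gives mean and SD (grey DMSO, red Dox, light blue siControl, dark blue siRNA against IGF2BP2 or IGF2BP3). ZFP36L1 is lowest in sgAAVS1 cells with Dox (587 CPM) and highest with siIGF2BP3 (760.0 CPM), and ZC3H12A is highest in sgIGF2BP2 cells with Dox (14.3 CPM).

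The first comparison asked how the 3 lines responded to Dox. In sgAAVS1 cells, the line whose guides target no IGF2BP gene, 2 of the 8 genes fell and none rose, and 15.9% of all genes tested were called (7.25% higher and 8.68% lower). Both were ZFP36-family members, ZFP36L1 and ZFP36L2. In sgIGF2BP2 cells 3 were called, with KHSRP and ZFP36L2 lower and ZC3H12A higher, against 20.4% of all genes (10% higher and 10.4% lower). In sgIGF2BP3 cells none of the 8 was called by edgeR or by DESeq2 and 0 had an unadjusted p under 0.05, against 2.64% of all genes (1.64% higher and 1.01% lower). The members' median log2 fold changes were 0.0018, 0.048 and 0.0096 in the 3 lines, beside 0.0044, 0.0077 and 0.0027 over all genes.

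ZFP36L1 was at 714, 719, 675 and 688 CPM in sgAAVS1 cells with DMSO and at 624, 537, 581 and 608 CPM with Dox. Every Dox value lay below every DMSO value. The mean fell from 699 ± 21.1 to 587 ± 37.9 CPM (SD, n = 4 each), a change of −15.9% (log2 fold change −0.25, SE 0.044; adjusted p = 1.81e-05 in edgeR). Of the 53 tested genes within 5 Mb of ZFP36L1, 2 were called higher and 2 lower in the same comparison, and their median log2 fold change was 0.026. Over all genes 7.25% were called higher and 8.68% lower.

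In sgIGF2BP2 cells ZFP36L1 was at 666, 687, 668 and 701 CPM with DMSO and at 743, 573, 701 and 705 CPM with Dox. The low Dox value belongs to replicate 2, the library that stood apart, and the other 3, from 701 to 743 CPM, lay at the top of the control range or above it. The log2 fold change was −0.00089 (95% interval −0.087 to 0.085, edgeR adjusted p = 0.994), and without replicate 2 it was 0.075 (edgeR adjusted p = 0.18). In sgIGF2BP3 cells the values were 711, 673, 664 and 687 CPM with DMSO and 696, 702, 704 and 773 CPM with Dox, which overlap (log2 fold change 0.072, edgeR adjusted p = 0.417). Without replicate 4 of the Dox group, the highest well, the value was 0.035 (edgeR adjusted p = 0.838).

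The Dox response of ZFP36L1 itself differed between the lines. Relative to sgAAVS1 cells it was higher by 0.25 on the log2 scale in sgIGF2BP2 cells (SE 0.062; adjusted p = 0.00653 in edgeR) and by 0.32 in sgIGF2BP3 cells (SE 0.062; adjusted p = 0.000314 in edgeR). These comparisons share the sgAAVS1 libraries. ZFP36L1 was the 1 member called in each, where 6.97% and 7.78% of all genes were called. Without replicate 2 of sgIGF2BP2 with Dox the first difference was 0.325 (edgeR adjusted p = 1.21e-05). The sgIGF2BP3 response minus the sgIGF2BP2 response was 0.073 (95% interval −0.048 to 0.19), which did not pass the test (edgeR adjusted p = 0.643), and without that replicate it was −0.0028 (edgeR adjusted p = 0.99). Of the 3 Dox responses behind these differences, the fall in sgAAVS1 cells was the one called.

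ZFP36L2, the second family member, stood at 42.1, 40.8, 43.0 and 45.3 CPM in sgAAVS1 cells with DMSO and at 35.8, 35.7, 32.4 and 41.5 CPM with Dox. Replicate 4 with Dox fell inside the control range, and the other 3 lay below it. The log2 fold change was −0.23 (SE 0.065; adjusted p = 0.00812 in edgeR), and the call was lost without replicate 3 of the Dox group (−0.19, edgeR adjusted p = 0.0546). In sgIGF2BP2 cells the values were 43.7, 42.8, 42.2 and 46.3 CPM with DMSO and 38.2, 34.7, 40.8 and 37.2 CPM with Dox. These groups did not overlap (log2 fold change −0.22, SE 0.064; adjusted p = 0.00861 in edgeR). Without replicate 2 of the Dox group the value was −0.18 and the call was lost (edgeR adjusted p = 0.0641).

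In sgIGF2BP3 cells ZFP36L2 stood at 47.2, 42.4, 41.3 and 42.8 CPM with DMSO and 39.0, 46.2, 43.1 and 46.3 CPM with Dox, so the groups overlapped (log2 fold change 0.0089, edgeR adjusted p = 0.965). The difference from the sgAAVS1 response was 0.24 and did not pass the test (SE 0.091; adjusted p = 0.0835 in edgeR), nor did the difference from the sgIGF2BP2 response (0.23, SE 0.09; adjusted p = 0.173 in edgeR). In 3 of 16 fits that left out 1 library, the difference between the sgIGF2BP3 and sgAAVS1 responses passed (lowest edgeR adjusted p = 0.0264). The responses of sgIGF2BP2 and sgAAVS1 cells differed by 0.013 (95% interval −0.17 to 0.19), and by 0.056 without replicate 2 of sgIGF2BP2 with Dox.

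ZFP36, the founding member and an immediate early gene in many cells, was called in none of the 14 comparisons with all libraries. It was at 36.6, 41.4, 36.0 and 32.7 CPM in sgAAVS1 cells with DMSO and at 39.8, 36.8, 41.4 and 43.7 CPM with Dox (log2 fold change 0.14, SE 0.064; adjusted p = 0.125 in edgeR). In sgIGF2BP2 cells it was at 31.0, 35.7, 37.6 and 37.3 CPM with DMSO and at 38.7, 37.6, 41.6 and 39.8 CPM with Dox (0.14, SE 0.064; adjusted p = 0.118 in edgeR). The groups overlapped or touched in both lines, and the estimates had the opposite sign from those of ZFP36L2. Without replicate 2 of sgAAVS1 with DMSO, the ZFP36 change in sgAAVS1 cells passed the test (0.205, edgeR adjusted p = 0.0346).

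KHSRP fell with Dox in sgIGF2BP2 cells. Its values were 645, 706, 689 and 699 CPM with DMSO and 622, 542, 628 and 603 CPM with Dox. All 4 Dox values lay below all 4 controls, with replicate 2 lowest. The mean went from 685 ± 27.4 to 599 ± 39.2 CPM (SD, n = 4 each), a change of −12.7% (log2 fold change −0.20, SE 0.034; adjusted p = 1.07e-05 in edgeR). Without replicate 2 it was −0.15 (edgeR adjusted p = 0.000453). The 192 tested genes within 5 Mb of KHSRP had a median log2 fold change of 0.035. Of them 33 were called higher and 19 lower, where 10% of all genes were called higher and 10.4% lower.

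In sgAAVS1 cells KHSRP was at 686, 702, 680 and 685 CPM with DMSO and 649, 627, 671 and 673 CPM with Dox. The groups did not overlap, but the change did not pass the test (log2 fold change −0.071, SE 0.034; adjusted p = 0.157 in edgeR). The 192 genes within 5 Mb of KHSRP had a median of −0.044 with Dox in sgAAVS1 cells. Of them 7 were called higher and 38 lower, where 7.25% of all genes were called higher and 8.68% lower. In sgIGF2BP3 cells KHSRP was at 689, 706, 687 and 695 CPM and at 658, 692, 673 and 726 CPM, which overlap (−0.014, edgeR adjusted p = 0.886). The sgIGF2BP3 response exceeded the sgIGF2BP2 response by 0.18 (SE 0.048; adjusted p = 0.0194 in edgeR), the 1 member called where 2.91% of all genes were. That call was lost without replicate 2 of sgIGF2BP2 with Dox (0.14, edgeR adjusted p = 0.0788), without replicate 2 of sgIGF2BP2 with DMSO (edgeR adjusted p = 0.0521) and without replicate 4 of sgIGF2BP3 with Dox (0.16, edgeR adjusted p = 0.0738). The sgIGF2BP2 and sgAAVS1 responses differed by −0.13, which did not pass (SE 0.049; adjusted p = 0.103 in edgeR), and by −0.08 without replicate 2 of sgIGF2BP2 with Dox (edgeR adjusted p = 0.311).

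ZC3H12A rose with Dox in sgIGF2BP2 cells, with the greatest fold change among the members in any of the 5 treatment effects. It was at 11.1, 10.8, 11.6 and 12.4 CPM with DMSO and at 13.7, 14.0, 14.6 and 14.8 CPM with Dox. The groups did not overlap, and the mean rose from 11.5 ± 0.692 to 14.3 ± 0.531 CPM (SD, n = 4 each; log2 fold change 0.31, SE 0.094; adjusted p = 0.0125 in edgeR). Without replicate 2 of the Dox group the value was 0.32 (edgeR adjusted p = 0.0217). In sgAAVS1 cells it was at 10.1, 14.6, 12.2 and 10.2 CPM with DMSO and 11.1, 11.5, 13.0 and 12.2 CPM with Dox, where the DMSO values spread widely. The difference between the 2 lines' responses was 0.29 (SE 0.14) and did not pass the test (edgeR adjusted p = 0.199), so the rise is not shown to differ between lines.

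Of the Roquin genes, RC3H2 was at 54.6, 53.9, 55.4 and 53.2 CPM in sgAAVS1 cells with DMSO and at 60.5, 58.7, 58.6 and 60.8 CPM with Dox. These values did not overlap, yet the change narrowly missed the threshold (log2 fold change 0.14, SE 0.052; adjusted p = 0.0566 in edgeR). In sgIGF2BP2 cells it was at 54.8, 51.6, 59.8 and 55.4 CPM with DMSO and 61.9, 55.9, 66.3 and 61.7 CPM with Dox (0.13, SE 0.051; adjusted p = 0.055 in edgeR). Here the groups overlapped, and without replicate 2 of the Dox group the value was 0.18 and passed (edgeR adjusted p = 0.0118). In sgIGF2BP3 cells the means were 59.6 CPM in both groups. RC3H1, its paralogue, ranged from 19.4 to 26.8 CPM over all 40 libraries and was called in no comparison.

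PUM2 was at 80.5, 76.3, 74.2 and 73.6 CPM in sgIGF2BP2 cells with DMSO and at 70.2, 69.3, 69.6 and 71.6 CPM with Dox. All Dox values lay below the controls, but the change did not pass the test (log2 fold change −0.12, SE 0.046; adjusted p = 0.0671 in edgeR). PUM2 was called in no comparison, and its values ran from 65.5 to 84.1 CPM over all libraries. Its Dox response in sgIGF2BP2 cells differed from that in sgAAVS1 cells by −0.17 (edgeR adjusted p = 0.0895). With siIGF2BP2 the PUM2 change was −0.093 (edgeR adjusted p = 0.105). It passed in 2 of 8 fits that left out 1 library, and was −0.054 without replicate 3 of the siIGF2BP2 group. With siIGF2BP3 the change was 0.041 (edgeR adjusted p = 0.762).

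The second comparison asked what siRNA against IGF2BP2 or IGF2BP3 did, each against siControl in the same line. With siIGF2BP2 2 of the 8 rose, ZFP36L1 and RC3H2, and none fell, where 36.8% of all genes were called (18.4% each way). With siIGF2BP3 1 rose, ZFP36L1, where 2.34% of all genes were called (0.936% higher and 1.4% lower). The siRNA and siControl values did not overlap for 0 and 2 members, against 30.6% and 9.96% of all genes. For ZFP36L1, RC3H2 and RC3H1 the overlap with siIGF2BP2 came from replicate 3 alone, and neither share was recounted without that library. The members' medians were 0.061 and 0.05 on the log2 scale, beside 0.011 and 0.0015 over all genes. ZFP36L1 was thus the 1 member called with both siRNA pools, and in the direction opposite to its Dox response in sgAAVS1 cells.

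ZFP36L1 was at 664, 658, 683 and 698 CPM with siControl and at 785, 753, 690 and 763 CPM with siIGF2BP2. Replicate 3 with siIGF2BP2 lay within the siControl range, and the other 3 lay above it (log2 fold change 0.15, SE 0.044; adjusted p = 0.00589 in edgeR). Leaving out replicate 3 gave 0.18 (edgeR adjusted p = 0.000669). In the sgIGF2BP3 line ZFP36L1 was at 661, 652, 650 and 683 CPM with siControl and at 781, 749, 746 and 763 CPM with siIGF2BP3. These groups did not overlap, and the mean rose from 662 ± 15.2 to 760.0 ± 16.3 CPM (SD, n = 4 each; log2 fold change 0.20, SE 0.044; adjusted p = 0.0026 in edgeR). The 2 siRNA effects differed by 0.054 (95% interval −0.067 to 0.17, edgeR adjusted p = 0.604). The genes within 5 Mb of ZFP36L1 had a median of 0.031 with siIGF2BP2 and of −0.026 with siIGF2BP3.

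RC3H2 was at 60.7, 62.8, 65.6 and 59.0 CPM with siControl and at 71.3, 71.1, 64.9 and 73.0 CPM with siIGF2BP2, where replicate 3 again overlapped the controls (log2 fold change 0.18, SE 0.049; adjusted p = 0.00307 in edgeR). Leaving out that replicate gave 0.21 (edgeR adjusted p = 0.000759). With siIGF2BP3 RC3H2 went from 57.4, 56.7, 54.0 and 59.8 CPM to 64.1, 61.5, 60.8 and 64.9 CPM. Those groups did not overlap, but the change of 0.14 did not pass the test over all genes (SE 0.051; adjusted p = 0.144 in edgeR). The 2 siRNA effects on RC3H2 differed by −0.035 (95% interval −0.17 to 0.10), so a call with 1 pool and not the other does not show that they differ. RC3H1 was at 19.8, 22.0, 19.4 and 22.7 CPM with siControl and 26.2, 22.8, 22.4 and 25.4 CPM with siIGF2BP3, a log2 fold change of 0.20 that did not pass (SE 0.075; adjusted p = 0.172 in edgeR).

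KHSRP, ZFP36 and ZFP36L2 were called with neither pool. KHSRP changed by −0.018 with siIGF2BP2 (95% interval −0.085 to 0.049) and by 0.035 with siIGF2BP3 (−0.032 to 0.10), although it fell with Dox in sgIGF2BP2 cells. ZC3H12A was at 11.0, 10.2, 11.7 and 10.5 CPM with siControl and 11.5, 11.4, 11.2 and 13.9 CPM with siIGF2BP2 (0.15, SE 0.097; adjusted p = 0.213 in edgeR). With siIGF2BP3 its change was −0.17 (SE 0.1; adjusted p = 0.492 in edgeR), and the difference of the 2 siRNA effects was −0.32 (SE 0.14; adjusted p = 0.102 in edgeR). For that difference of effects edgeR called 0 of the 8, as did DESeq2, and 2 had an unadjusted p under 0.05, where 18.7% of all genes were called. Dox and siRNA differ in agent and duration, so their effects are given side by side and were not tested against each other.

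**Figure D3:**
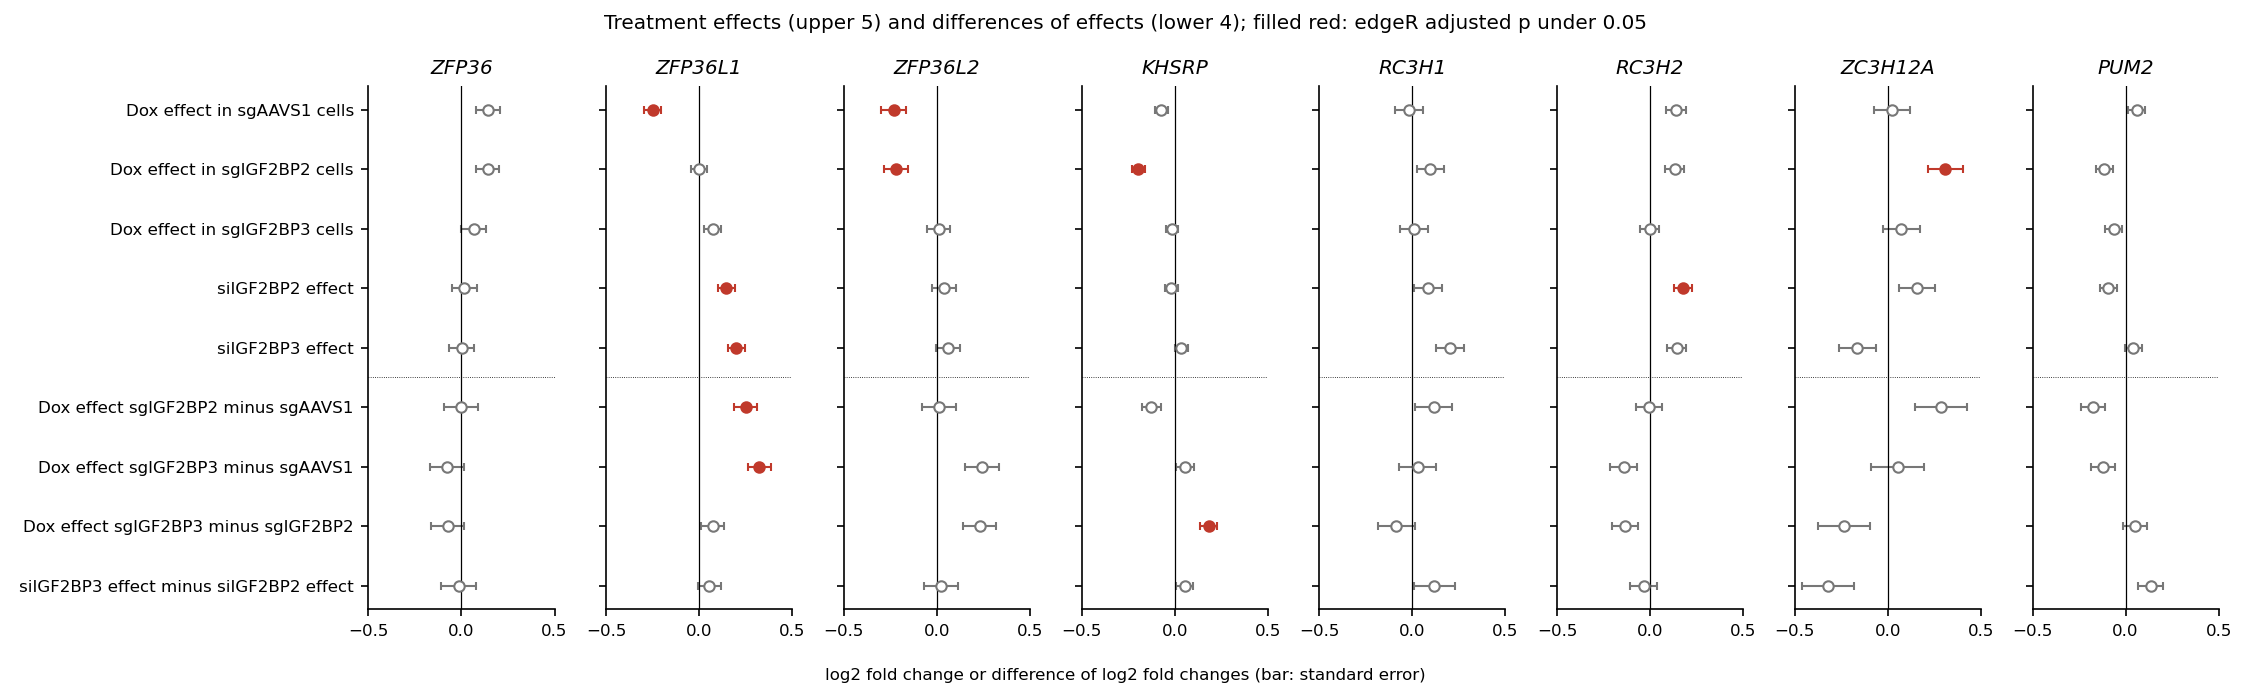
Log2 fold change of each gene in the 5 treatment effects (above the dotted line) and difference of log2 fold changes in the 4 differences of effects (below it), with the standard error as a bar; filled red points have an edgeR adjusted p under 0.05. ZFP36L1 is called in 5 of the 9 comparisons, falling with Dox in sgAAVS1 cells (−0.25) and rising with both siRNA pools (0.15 and 0.20), while ZFP36, RC3H1 and PUM2 are called in none.

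The controls were then compared with each other; siControl and DMSO cells differ in transfection as well as in solvent. In the sgIGF2BP2 line siControl raised RC3H2 over DMSO, from 55.4 to 62.0 CPM (log2 fold change 0.15, SE 0.05; adjusted p = 0.0223 in edgeR), the 1 member called where 18.4% of all genes were. Its values overlapped between the groups, and the call was lost without replicate 2 of the DMSO group (edgeR adjusted p = 0.102) and without replicate 2 (0.0531) or 3 (0.0952) of the siControl group. RC3H2 rose from DMSO to siControl and again from siControl to siIGF2BP2 in this line, where its mean of 70.0 CPM was the highest of all groups. In the sgIGF2BP3 line edgeR and DESeq2 called 0 members between siControl and DMSO and 2 had an unadjusted p under 0.05, where 19.4% of all genes were called. RC3H2 changed there by −0.065 (edgeR adjusted p = 0.413). In this line the values of 3 members, ZFP36L2, KHSRP and RC3H1, did not overlap between siControl and DMSO, against 21.9% of all genes. Between the 3 lines with DMSO, edgeR and DESeq2 called 0 of the 8 members in each of the 3 comparisons, 1 had an unadjusted p under 0.05 (RC3H2, sgIGF2BP3 against sgAAVS1, 0.14), and 0.0175% of all genes were called in each.

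Genes whose level followed each member most closely over the 40 libraries were listed by Pearson's r of log2 CPM. The libraries share groups and lines, so r describes these libraries. For ZFP36L1 they were BPTF (0.757), PIEZO1 (0.754) and BNC2 (0.745), for KHSRP DNMT1 (0.821), SMARCC2 (0.821) and HCFC1 (0.819), and for RC3H2 PCMTD1 (0.793), KDM3A (0.786) and FNIP1 (0.767). For ZFP36 they were AMOTL2 (0.763), DLG4 (0.757) and JUNB (0.755), another immediate early gene. ZFP36L2 had C17orf67 (0.728), SRRM1 (0.683) and ZNF236 (0.673), PUM2 had SSX2IP (0.748), TACC1 (0.735) and CHML (0.716), RC3H1 had RBM12B (0.679), NUFIP2 (0.676) and ZNF749 (0.662), and ZC3H12A had MTCH1 (0.651), ACADVL (0.65) and NOCT (0.648). Among the members themselves r was highest for ZFP36L2 with KHSRP (0.639), ZFP36L1 with ZFP36L2 (0.574) and ZFP36 with ZC3H12A (0.568). It was lowest for KHSRP with ZC3H12A (−0.447) and ZC3H12A with PUM2 (−0.434). ZFP36 had r of −0.294 with ZFP36L1 and −0.257 with ZFP36L2.

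Other genes of the pathway were read from 5 lists, which were also chosen with earlier results of these data known. The shares of each list that were called are to be read against those of all genes, which were 15.9%, 20.4% and 2.64% with Dox in sgAAVS1, sgIGF2BP2 and sgIGF2BP3 cells, 36.8% with siIGF2BP2 and 2.34% with siIGF2BP3. Of 35 genes of deadenylation and decapping, the machinery that these proteins recruit, 5 rose and 5 fell with Dox in sgAAVS1 cells (28.6%), 1 rose and 7 fell in sgIGF2BP2 cells (22.9%), and 1 rose and 1 fell in sgIGF2BP3 cells (5.71%). The median log2 fold changes were 0.0045, −0.046 and −0.064. Without replicate 2 of the Dox group the sgIGF2BP2 counts were 4 and 4, and without replicate 4 the sgIGF2BP3 counts were 1 and 0. BTG2, an antiproliferative protein that binds the deadenylase and a known p53 target, rose in all 3 lines: from 13.7 to 18.6 CPM in sgAAVS1 (log2 fold change 0.44), from 12.1 to 31.0 CPM in sgIGF2BP2 (1.37) and from 12.9 to 22.0 CPM in sgIGF2BP3 cells (0.77, edgeR adjusted p = 5.38e-11). With siIGF2BP2 4 rose and 3 fell (20%, against 36.8% of all genes), and DCP2, the decapping enzyme, fell from 45.0 to 30.6 CPM (−0.56, SE 0.062; adjusted p = 1.76e-11 in edgeR) while PAN2, a deadenylase subunit, rose from 12.9 to 18.8 CPM (0.55). With siIGF2BP3 edgeR and DESeq2 called 0 of the 35, and 4 had an unadjusted p under 0.05.

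A list of 19 genes covered the exosome and the SKI complex, which degrade mRNA from its 3′ end, and other decay factors such as UPF1 and DIS3L2. Of the 19, 1 rose and 6 fell with Dox in sgAAVS1 cells (36.8%, median −0.092), and 1 rose and 4 fell in sgIGF2BP2 cells (26.3%, median −0.083). Without replicate 2 of the Dox group the sgIGF2BP2 counts were 0 and 5. EXOSC10, a catalytic exosome subunit, fell in both (−0.15 and −0.21), and EXOSC8 fell in sgIGF2BP2 cells from 41.4 to 32.5 CPM (−0.35, SE 0.059; adjusted p = 6.06e-06 in edgeR). In sgIGF2BP3 cells EXOSC8 (−0.22) and EXOSC9 (−0.18) were called lower, and without replicate 4 of the Dox group 0 genes of the list were called. With siIGF2BP2 3 rose and 4 fell, the same share (36.8%) as of all genes, among them HBS1L, a factor tied to the SKI complex, from 74.1 to 51.4 CPM (−0.53, SE 0.047; adjusted p = 5.25e-15 in edgeR). With siIGF2BP3 2 fell (10.5%), EXOSC3 (−0.24) and EXOSC10 (−0.22).

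Of 24 related 3′ UTR binding proteins 21 were tested. With Dox 1 rose and 3 fell in sgAAVS1 cells (19.0%, against 15.9% of all genes) and 1 rose and 2 fell in sgIGF2BP2 cells (14.3%, against 20.4%). ELAVL1 (HuR), which stabilises AU-rich mRNAs and so acts against several members, fell in both (−0.09, edgeR adjusted p = 0.0465, and −0.16, edgeR adjusted p = 0.00021). With siIGF2BP2 2 rose and 4 fell (28.6%, against 36.8%), and ELAVL1 fell from 226 to 190.0 CPM (−0.25, SE 0.033; adjusted p = 5.82e-09 in edgeR). HNRNPD (AUF1), another AU-rich element binder, fell with Dox in sgIGF2BP2 cells from 570.0 to 501 CPM (−0.19, edgeR adjusted p = 0.000383). MSI2 was called lower with Dox in sgAAVS1 cells (−0.21). Like TOB1 of the deadenylation list, it lies on chromosome 17 distal to SPOP, a segment picked from earlier results of these data. The 250 tested genes of that segment had a median of −0.17 in the same comparison, and whether the segment bears on MSI2 was not tested. In sgIGF2BP3 cells with Dox and with siIGF2BP3, edgeR and DESeq2 called 0 of the 21, with 2 and 3 at an unadjusted p under 0.05.

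Of 17 regulators of the members, such as the p38 kinases that phosphorylate ZFP36, 1 rose and 5 fell with Dox in sgAAVS1 cells (35.3%, against 15.9% of all genes) and 2 rose and 0 fell in sgIGF2BP2 cells (11.8%, against 20.4%). DUSP6, a phosphatase of the ERK kinases, fell from 135 to 106 CPM in the first (−0.34, edgeR adjusted p = 1.62e-09) and rose from 112 to 142 CPM in the second (0.35, edgeR adjusted p = 3.03e-10). With siIGF2BP2 5 rose and 6 fell (64.7%, against 36.8%), and MAPK14 (p38α) fell from 74.7 to 49.8 CPM (−0.58, SE 0.045; adjusted p = 1.44e-17 in edgeR) and MAPKAPK3, a kinase downstream of p38, from 175 to 114 CPM (−0.61). MAPK11 (p38β) rose from 32.8 to 42.7 CPM (0.38). With siIGF2BP3 1 gene was called, DUSP6 (0.15, edgeR adjusted p = 0.0492). In sgIGF2BP3 cells with Dox edgeR called 0 of the 17 and DESeq2 called 1, and 4 had an unadjusted p under 0.05.

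Finally, 36 mRNAs reported elsewhere as targets of the members were read, of which 29 were tested; TNF, IL6, CXCL8, PTGS2, CSF2, ICOS and TNFRSF4 were below the filter. With Dox 5 rose and 8 fell in sgAAVS1 cells (44.8%), 9 rose and 4 fell in sgIGF2BP2 cells (44.8%), and 5 rose and 0 fell in sgIGF2BP3 cells (17.2%), where 15.9%, 20.4% and 2.64% of all genes were called. Their median log2 fold changes were 0.079, 0.14 and 0.061, beside 0.0044, 0.0077 and 0.0027 over all genes. Without replicate 2 of the Dox group the sgIGF2BP2 counts were 10 and 3, and without replicate 4 the sgIGF2BP3 counts were 4 and 0. The cytokine IL11 rose with Dox in sgAAVS1 (from 17.6 to 30.1 CPM, 0.77) and sgIGF2BP2 cells (0.72). In sgIGF2BP3 cells its rise of 0.29 only just passed the test (edgeR adjusted p = 0.0494). The apoptosis inhibitor BIRC3 rose in sgAAVS1, sgIGF2BP2 and sgIGF2BP3 cells by 0.86, 0.58 and 0.48. The transcription factor MYC fell from 390.0 to 294 CPM in sgAAVS1 cells (−0.41), rose in sgIGF2BP2 cells (0.19) and was not called in sgIGF2BP3 cells (0.061). The phosphatase DUSP1 fell in sgAAVS1 cells (−0.44) and rose in the other lines (0.35 in each). The inflammatory regulator NFKBIZ, a reported Regnase-1 target, rose in sgIGF2BP2 cells from 41.5 to 64.0 CPM (0.63, SE 0.072; adjusted p = 2.47e-10 in edgeR), and was not called in sgAAVS1 (0.089) or sgIGF2BP3 cells (0.23, edgeR adjusted p = 0.0729). Differences between the lines' responses are not given for genes of the lists. A call in some lines and not in others therefore does not show that the lines differ. PLAU, the urokinase gene, fell in sgAAVS1 cells (−0.38) and rose in sgIGF2BP2 (0.80) and sgIGF2BP3 cells (0.44).

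With siIGF2BP2 2 of the 29 rose and 14 fell (55.2%; median −0.18). The falls with no overlap between groups were led by IER3, a stress-response gene, from 13.3 to 5.87 CPM (−1.17, SE 0.12; adjusted p = 9.74e-13 in edgeR), IL11 from 13.7 to 6.94 CPM (−0.98, SE 0.11; adjusted p = 7.18e-12 in edgeR) and cyclin D1 (CCND1) from 240.0 to 137 CPM (−0.80, SE 0.033; adjusted p = 1.95e-31 in edgeR). E2F1 (0.36) and CDKN1B (0.51) rose. With siIGF2BP3 1 rose and 1 fell (6.9%; median 0.025). Beside this, 36.8% of all genes were called with siIGF2BP2 and 2.34% with siIGF2BP3, with medians of 0.011 and 0.0015. The list mixes targets of several proteins from other cell types, and whether the members' levels bear on these changes was not tested.

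**Figure D4:**
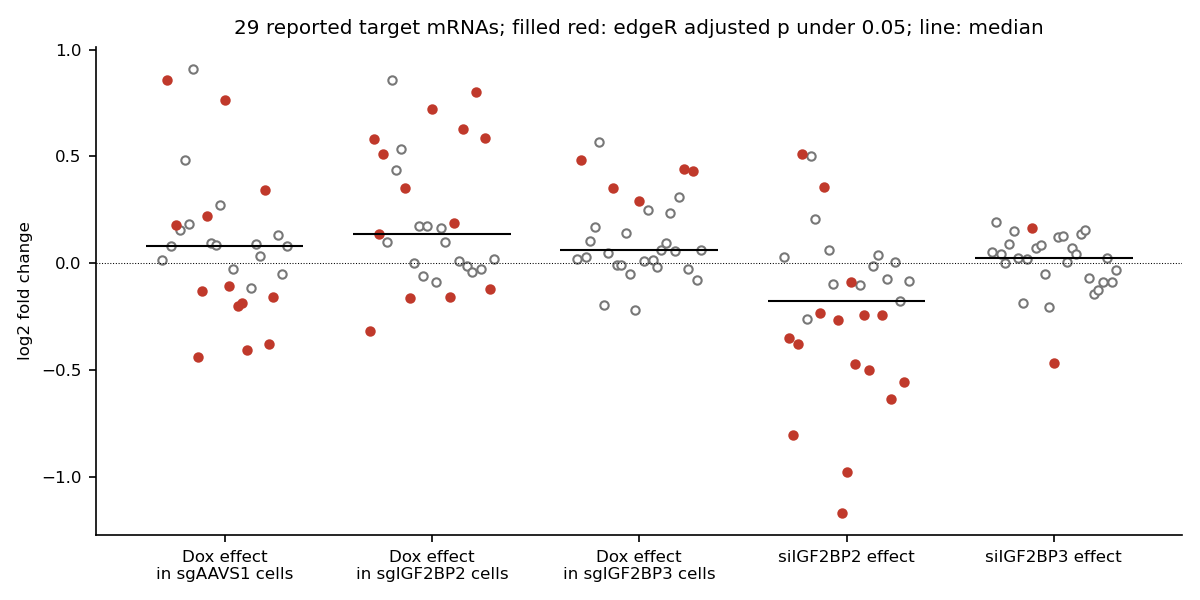
Log2 fold change of the 29 tested target mRNAs in the 5 treatment effects, 1 point per gene; filled red points have an edgeR adjusted p under 0.05 and the line is the median. The siIGF2BP2 column is the one with most called falls (14, median −0.18), and the siIGF2BP3 column has 1 call each way.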

How the data were processed

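Poly(A) RNA of 40 libraries was sequenced, and the authors deposited raw counts per gene, 1 column per library. The reads were handled with bcl2fastq 2.20.0.422 and STAR 2.7.5c on hg38, per the submitters' processing notes. The counting tool, the annotation and the strand setting are not given in the sources used here. Of 19962 gene identifiers 19847 were found in GENCODE release 29.

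Counts were tested with edgeR 4.0.16 (R 4.3.3): filterByExpr, TMM factors (0.978 to 1.03), 1 coefficient for each of 10 groups, quasi-likelihood test, Benjamini-Hochberg adjustment over 11428 genes, called at an adjusted p under 0.05. Standard errors are the absolute log2 fold change divided by the square root of F, and 95% intervals are the normal ones from them. The 14 contrasts were 5 treatment effects, 4 differences of effects, 2 of siControl against DMSO and 3 between lines. Library totals of 10018181 to 24822807 counts gave each member 103 counts or more, and the common biological coefficient of variation was 3.79%. The fit was run on simulated counts for the Dox effect in sgAAVS1 cells, with changes larger than those of the members. Recovery at the members' sizes, or for differences of effects, was not tested. Alternatives were DESeq2 1.42.0, its size factors, no filter, the groups of a contrast alone, a replicate block and leaving out each library.

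The 8 genes and all lists were chosen with earlier results of these data known. Named from each list were up to 3 called rises and 3 called falls of greatest fold without overlap between groups, and, as likest to each member, the 3 genes of highest Pearson r over log2 CPM among genes with mean log2 CPM of at least 2.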

Additional observations from a re-analysis of the deposited data

Results flagged for a closer look

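In 80 sets of 4 libraries (8 genes in 10 groups), 2 had a library whose gap to its nearest neighbour exceeded 0.829 of the range, and chance flags about 1 in 20 sets, or 4 here. ZFP36L1 was at 773 CPM in replicate 4 of sgIGF2BP3 with Dox, where the other 3 were at 696 to 704 CPM. ZC3H12A was at 13.9 CPM in replicate 4 of sgIGF2BP2 with siIGF2BP2, where the other 3 were at 11.2 to 11.5 CPM.

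By the test of the difference itself, 3 responses differed between lines. The Dox response of ZFP36L1 in sgAAVS1 cells differed from that in sgIGF2BP2 cells by 0.249 and from that in sgIGF2BP3 cells by 0.322 on the log2 scale. The Dox response of KHSRP differed between sgIGF2BP3 and sgIGF2BP2 cells by 0.182. The KHSRP call was lost in 4 of 21 alternative fits, and each ZFP36L1 call was lost in 0 of 21.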

How the results depend on the processing

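Of the members' effects that were called in any of these fits, each kept its direction under every alternative run (DESeq2, size factors of DESeq2, no filter, the groups of the contrast alone, a replicate block, and without each library). With the groups of the contrast alone, the genes called rose from 302 to 477 for Dox in sgIGF2BP3 cells and from 267 to 465 for siIGF2BP3, and the members called for the sgIGF2BP3 minus sgIGF2BP2 Dox response went from 1 to 0. Of the line comparisons with DMSO, sgIGF2BP2 against sgAAVS1 went from 2 genes to 4 without a filter, and sgIGF2BP3 against sgAAVS1 from 2 to 35 without a filter, 6 with a replicate block, 4 with its groups alone and 5 with DESeq2; the cause was not tested. Leaving out 1 library at a time gave 1 to 3 members called for Dox in sgAAVS1 cells, 1 to 2 for the sgIGF2BP3 minus sgAAVS1 response, 0 to 1 for sgIGF2BP3 minus sgIGF2BP2 and 0 to 2 for siControl against DMSO in sgIGF2BP2 cells. It gave 108 to 285 genes for Dox in sgIGF2BP3 cells, 428 to 1415 for sgIGF2BP3 minus sgAAVS1, 1 to 2 for sgIGF2BP2 against sgAAVS1, 1 to 74 for sgIGF2BP3 against sgAAVS1 and 0 to 2 for sgIGF2BP3 against sgIGF2BP2. Over all alternatives the adjusted p of ZFP36L1 ran from 1.41e-10 to 0.000959 for Dox in sgAAVS1 cells, from 0.000393 to 0.0367 for siIGF2BP2 and from 4.4e-08 to 0.017 for siIGF2BP3. It ran from 1.52e-07 to 0.00141 for KHSRP and from 0.0116 to 0.0378 for ZC3H12A with Dox in sgIGF2BP2 cells. Same-numbered wells deviated together with correlations of −0.0896 to 0.0966 over 10 pairs of groups, so the numbers were not taken to pair wells, although all 4 correlated best with their own number in 2 of the 10. The replicate block called 4 members in place of 3 for Dox in sgIGF2BP2 cells, the fourth being PUM2 (−0.118, edgeR adjusted p = 0.0382), and changed no other member's call. Under DESeq2's size factors 0 of 80 group levels moved by over 1 SD. Counts for the lists without replicate 2 of sgIGF2BP2 or replicate 4 of sgIGF2BP3 with Dox were chosen after seeing the data.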
